A study of Mus musculus with 18 samples.

Results

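The genes described here are 10 that carry glucose into the cell and through glycolysis to lactate, followed by RNA sequencing in ductal adenocarcinoma cells of the mouse pancreas. They were chosen by symbol, as the entries Slc2a1, Hk1, Hk2, Pfkl, Pfkp, Aldoa, Pgk1, Eno1, Pkm and Ldha among the 24527 entries of the deposited read count matrix. The cells were 3 lines of mixed strain background, PD454, PD7591 and PD883, each grown in a glucose-rich medium with insulin and dexamethasone. Each line spent 48 h in ionomycin (2.5 µM), TGFb (10 ng/ml) or the vehicle DMSO. Ionomycin is an ionophore that lets calcium into cells, and TGFb is a cytokine known for turning epithelial carcinoma cells mesenchymal. Each pairing of line and treatment gave 2 libraries, hence 6 libraries per treatment and 18 in all. Library totals lay between 17591005 and 37894692 counts. Whether the 2 libraries of a pair stem from cultures grown apart is not said in the labels, so their spread may be technical alone. The edgeR tests within single lines, and those of differences between lines, rest on that spread. The edgeR tests over all lines also take in how the lines differ in response, but they count the libraries of a pair as separate.

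Glycolysis splits glucose into pyruvate in the cytosol and yields ATP without oxygen. Entry through a glucose transporter, phosphorylation by a hexokinase and the phosphofructokinase step are its main points of control, and lactate dehydrogenase regenerates the NAD+ that lets it run on. Many of its genes are known targets of the hypoxia-inducible factors and of Myc, and pancreatic ductal adenocarcinoma is known for heavy glucose use.

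Levels below are counts scaled to a library of 1000000 (CPM) with trimmed mean of M values (TMM) factors, and a mean ± SD is taken over the means of the 3 lines. Fold changes are log2 values from edgeR's quasi-likelihood test over all libraries, with the line as a term. A gene was called where its Benjamini-Hochberg adjusted p, taken over all 13827 entries tested, lay under 0.05. Of the 10 genes, 9 passed the filter on low counts.

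Eno1, which encodes the main enolase, was the one that did not pass. Its entry held 57 counts over all 18 libraries, with 0 to 11 in a library. The entry Eno1b, which shares much of its sequence, held 558180 counts, with 21062 to 49788 in a library. In the reference transcripts 81.8% of the 31-base words of Eno1b also occur in Eno1, 27.75% of those of Eno1 occur in Eno1b, and none of Eno1 occurs in Eno2 or Eno3. The split of counts between both entries is therefore uncertain, enolase is given below by the Eno1b entry, and how the reads came to be assigned to it was not tested. Aldoa shared 10.2% of the words of Aldoart1 and 5.84% of those of Aldoart2, which held 5 to 75 and 0 to 7 counts in a library. No word of Ldha occurs in Ldhc or Ldhal6b, and none of Pgk1 in Pgk2. Other entries that may share sequence with the 10 genes were not compared.

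With ionomycin, Hk2, the inducible hexokinase, rose to 1.94-fold of its DMSO level, and Pkm, the pyruvate kinase that makes pyruvate, fell to 0.674-fold. The other 7 tested genes did not pass the test, so 2 of 9 were called, 1 higher and 1 lower, where 33.3% of all genes tested were called (17.2% higher and 16.1% lower). The median log2 change of the 9 genes was 0.15, against -0.03 for all genes tested. Counted against library totals instead of TMM factors, 4 of the 9 were called and all genes shifted downwards, with a median log2 change of -0.12 and with 1936 genes called higher and 2995 lower, against 2372 higher and 2227 lower with TMM factors. With the duplicates of each pair summed, Hk2 alone was called, and without PD883 the calls were 3 higher (Hk2, Pfkp and Aldoa) and 0 lower.

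With TGFb, 6 of the 9 genes fell and none rose. They were Hk1, Pfkp, Aldoa, Pgk1, Pkm and Ldha, and they cover steps from the phosphorylation of glucose to the making of lactate. Of all genes tested, 50.7% were called in this contrast (24.3% higher and 26.5% lower). The median log2 change of the 9 genes was -0.47, against -0.0022 for all genes tested. Bulk RNA cannot tell fewer cells that express a gene from less RNA per cell. Without line PD883, 3 of the 9 were called, and with the duplicates of each pair summed, 4.

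Set directly against TGFb, ionomycin gave higher levels of Hk1, Hk2, Pfkp, Aldoa, Pgk1 and Ldha and a lower level of none. These 6 of 9 stand beside 62.9% of all genes tested (31% higher and 31.9% lower). The median log2 difference of the 9 genes was 0.65, against -0.04 for all genes tested. The 3 contrasts share their libraries in pairs, so they are not independent of each other.

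**Figure D1:**
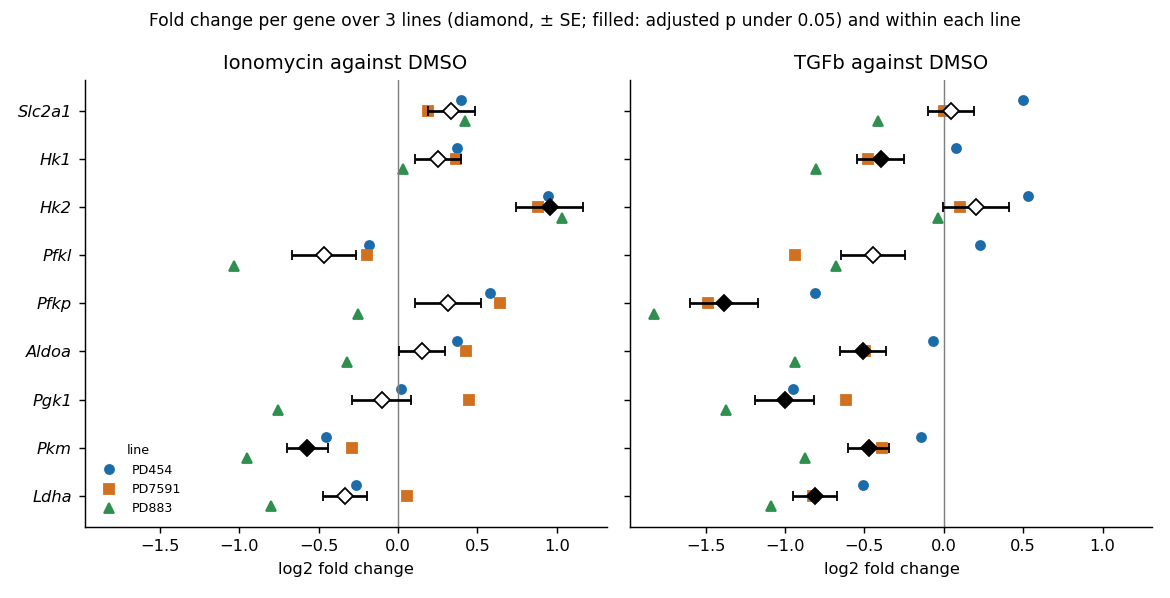
Log2 fold changes of the 9 tested genes for ionomycin against DMSO and TGFb against DMSO. Bars show 1 standard error from the fit over all 18 libraries, and small markers show each line. Filled points have an adjusted p under 0.05: Hk2 at 0.95 and Pkm at -0.57 in the first contrast, and 6 genes from Hk1 at -0.40 to Pfkp at -1.38 in the second.

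Promoters are shown for 4 genes whose calls held under all 32 alternative settings, Hk2, which rose with ionomycin, and Pfkp, Pgk1 and Ldha, which fell with TGFb. Each is the 250 bases before a RefSeq transcription start on build GRCm38.p6, read 5′ to 3′ on the strand of the gene. The capitals mark ACGTG and GCGTG, the core letters of the hypoxia response element, on either strand. Their places are chr6:82774455-82774704 on the minus strand for Hk2, chr13:6648772-6649021 on the minus strand for Pfkp, chrX:106186850-106187099 on the plus strand for Pgk1 and chr7:46845554-46845803 on the plus strand for Ldha, the first of its 2 starts.
Hk2: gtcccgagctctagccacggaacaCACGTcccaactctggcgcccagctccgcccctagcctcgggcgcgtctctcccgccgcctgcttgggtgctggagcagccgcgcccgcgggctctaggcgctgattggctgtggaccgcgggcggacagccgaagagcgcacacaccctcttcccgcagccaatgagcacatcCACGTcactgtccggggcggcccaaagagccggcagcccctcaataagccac
Pfkp: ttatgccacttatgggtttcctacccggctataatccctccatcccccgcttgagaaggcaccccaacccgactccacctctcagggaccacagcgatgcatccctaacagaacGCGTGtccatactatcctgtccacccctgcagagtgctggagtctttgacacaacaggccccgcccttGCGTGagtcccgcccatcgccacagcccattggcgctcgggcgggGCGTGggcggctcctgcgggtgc
Pgk1: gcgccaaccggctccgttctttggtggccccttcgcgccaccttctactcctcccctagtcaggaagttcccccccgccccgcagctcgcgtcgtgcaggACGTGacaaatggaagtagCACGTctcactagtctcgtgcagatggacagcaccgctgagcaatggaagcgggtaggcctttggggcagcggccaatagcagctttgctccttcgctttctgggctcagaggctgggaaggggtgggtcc
Ldha: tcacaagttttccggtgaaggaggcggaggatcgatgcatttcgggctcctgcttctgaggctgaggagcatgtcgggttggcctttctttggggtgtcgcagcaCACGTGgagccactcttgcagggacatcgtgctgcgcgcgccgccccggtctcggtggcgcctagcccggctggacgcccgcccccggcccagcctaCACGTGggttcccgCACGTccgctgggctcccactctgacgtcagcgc

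All 10 genes had a RefSeq promoter, with 17 windows between them since some have several starts. ACGTG, or its complement CACGT, lay in 7 of these 17 windows, belonging to 6 of the 10 genes, and in 16.6% of 32851 promoters of that length. GCGTG, or CACGC, lay in 8 windows of 6 genes and in 28.2% of all promoters. CACGTG, the E-box bound by Myc and by carbohydrate-response factors, contains ACGTG and lay in 1 window, that of Ldha shown above, and in 6.02% of all promoters. GGGCGG, a GC box, lay in 10 windows of 8 genes and in 32.7% of all promoters. The windows were 49.6 to 71.2% G and C, where the median of all promoters was 52.4%. Hk2 and Pgk1 each hold ACGTG 2 times, Ldha holds it 5 times with both strands counted, and Pfkp holds GCGTG 3 times. A match is no measure of binding, and whether these letters bear on the changes was not tested.

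Slc2a1 encodes GLUT1, the transporter that brings glucose in at a steady rate. It lies at chr4:119108711-119137983 on the plus strand (GRCm38, GENCODE M21, as for the other loci given). Its level was 320.4 and 247 CPM in PD454, 265 and 309 CPM in PD7591 and 395 and 355 CPM in PD883 with ionomycin. With TGFb the same pairs were 310.3 and 298, 257 and 249, and 251 and 169 CPM, and with DMSO they were 234 and 197, 224 and 281, and 285 and 275 CPM. The ranges of all 3 treatments overlapped. The log2 change was 0.34 ± 0.15 (SE) with ionomycin (edgeR adjusted p = 0.0847) and 0.05 ± 0.15 with TGFb (adjusted p = 0.816), and neither passed. The lines went apart under TGFb: both TGFb libraries lay above both DMSO libraries in PD454, with a log2 change of 0.50 (adjusted p = 0.0614), and below them in PD883, with -0.41 (adjusted p = 0.102). The test of that difference between lines gave an adjusted p of 0.128.

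Hexokinases phosphorylate glucose and so trap it in the cell. Hk2, at chr6:82725025-82774454 on the minus strand, had 300.4 and 263 CPM in PD454, 262 and 319.7 CPM in PD7591 and 244 and 276 CPM in PD883 with ionomycin. With DMSO it had 186 and 106, 141 and 175, and 166 and 88.4 CPM in the same lines. All 6 ionomycin libraries thus lay above all 6 DMSO libraries, and the means were 278 ± 15.7 and 144 ± 15.5 CPM (SD, n = 3 lines each). The log2 change was 0.95 ± 0.21 (adjusted p = 0.00199), with 0.95 in PD454, 0.88 in PD7591 and 1.03 in PD883. None of these single-line changes passed on its own (adjusted p = 0.0905, 0.129 and 0.0673), where 4 libraries enter each contrast. With TGFb the 6 libraries spread from 80.8 to 282 CPM with a median of 165 CPM, and overlapped those of DMSO. That log2 change was 0.20 ± 0.21 (adjusted p = 0.431). Ionomycin was 0.75 ± 0.21 above TGFb (adjusted p = 0.00459), a call lost without PD7591 (adjusted p = 0.0539).

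Wide gaps between Hk2 duplicates fell on libraries that leaned towards short transcripts. In DMSO PD454 library 14, DMSO PD883 library 8, TGFb PD454 library 18 and TGFb PD883 library 12, log2 transcript length ran against the deviation of each gene from its mean, with r of -0.209, -0.223, -0.112 and -0.211 across genes. The other 14 libraries had r between -0.0672 and 0.164. Hk2 has the longest reference transcript of the 10 genes, at 5513 bases, against 1511 bases for Aldoa, and it was the lower duplicate in each of those 4 libraries. None of the 4 was an ionomycin library. Without them, or with an offset for transcript length, Hk2 was still called higher with ionomycin, and over 32 alternative settings its log2 change lay between 0.73 and 1.09, with every adjusted p at 0.0306 or less.

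Hk1, the hexokinase of most tissues at rest, lies at chr10:62268855-62379908 on the minus strand. It had 383 and 361 CPM in PD454, 376 and 470.5 CPM in PD7591 and 420.3 and 419.6 CPM in PD883 with ionomycin. Under TGFb the pairs were 358 and 248, 235 and 236, and 273 and 197 CPM, and with DMSO 309 and 265, 296 and 360.1, and 478 and 343 CPM. Every ionomycin library lay above every TGFb library, while DMSO overlapped both. The direct difference of ionomycin from TGFb was 0.65 ± 0.15 (adjusted p = 0.000864). Against DMSO, Hk1 fell with TGFb (log2 change -0.40 ± 0.15, adjusted p = 0.0303), and its value with ionomycin, 0.25 ± 0.15, did not pass (adjusted p = 0.194). By line the change with TGFb was 0.08 in PD454, -0.48 in PD7591 and -0.80 in PD883 (edgeR adjusted p = 0.824, 0.0934 and 0.00833), so the lines did not share a sign. Of the 6 falls with TGFb, the call of Hk1 over the lines was lost most often, in 12 of 32 alternative settings. Among them were leaving out PD883 (adjusted p = 0.331) or PD7591 (adjusted p = 0.204).

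**Figure D2:**
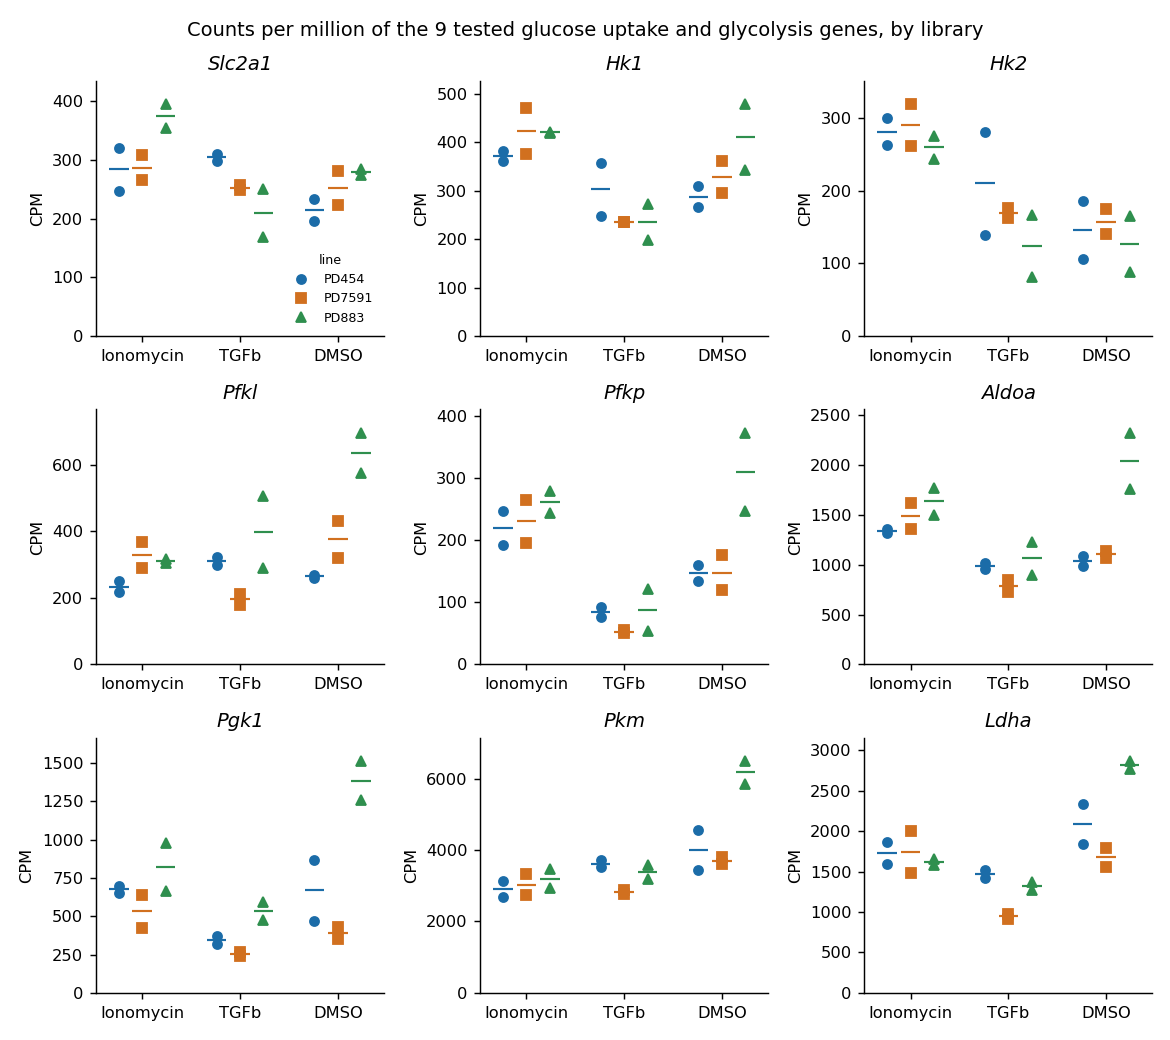
CPM of Slc2a1, Hk1, Hk2, Pfkl, Pfkp, Aldoa, Pgk1, Pkm and Ldha in each of the 18 libraries, by treatment (ionomycin, TGFb, DMSO from left to right). Each line has 1 marker shape and colour, with a bar at the mean of each pair. Each panel has its own axis from 0. Hk2 is higher in all 6 ionomycin libraries than in any DMSO library, Ldha is lower in all 6 TGFb libraries than in any DMSO library, and PD883 with DMSO stands highest for most genes.

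Phosphofructokinase adds the second phosphate and commits the sugar to glycolysis, and its subunits are encoded by Pfkl (liver type), Pfkp (platelet type) and Pfkm (muscle type). Pfkp, at chr13:6579768-6648777 on the minus strand, changed most of all 10 genes. It had 247 and 193 CPM in PD454, 197 and 266 CPM in PD7591 and 279 and 244 CPM in PD883 with ionomycin. With TGFb it had 92.2 and 75.7, 50.3 and 55.5, and 122 and 53.5 CPM, and with DMSO 160.4 and 135, 119.8 and 177, and 374 and 248 CPM. Both TGFb libraries lay below both DMSO libraries in all 3 lines, and all 6 TGFb libraries lay below all 6 ionomycin libraries. The means were 238 ± 21.4 with ionomycin, 74.9 ± 19.2 with TGFb and 202 ± 94.1 CPM with DMSO (SD, n = 3 lines each).

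Pfkp fell with TGFb to 0.384-fold of the DMSO level, a log2 change of -1.38 ± 0.21 (adjusted p = 2.85e-05). By line it was -0.81 in PD454 (adjusted p = 0.0686), -1.49 in PD7591 (adjusted p = 0.00235) and -1.82 in PD883 (adjusted p = 0.000464). It was 3.24-fold higher with ionomycin than with TGFb (log2 1.70 ± 0.21, adjusted p = 1.94e-06), and that difference was called in each line, at 1.39, 2.13 and 1.57. Ionomycin against DMSO gave 0.31 ± 0.21 (adjusted p = 0.259), with 0.58 in PD454, 0.64 in PD7591 and -0.25 in PD883. Without PD883 Pfkp was called higher with ionomycin, at 0.62 (adjusted p = 0.0203). The 2 TGFb libraries of PD883 differed by 2.29-fold, the widest gap between duplicates among these genes.

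Pfkl, at chr10:77986947-78010083 on the minus strand, took another course. Its means were 291 ± 50.4 with ionomycin, 301 ± 101 with TGFb and 425 ± 191 CPM with DMSO, and the ranges overlapped. The log2 change was -0.47 ± 0.20 with ionomycin (adjusted p = 0.0791) and -0.45 ± 0.20 with TGFb (adjusted p = 0.0706), so neither was called over the lines. With TGFb it had 323 and 298 CPM in PD454, 179 and 212 CPM in PD7591 and 507 and 289 CPM in PD883. With DMSO these pairs were 269 and 261, 321 and 430.0, and 696 and 576 CPM. TGFb thus lay above DMSO in PD454, with 0.23 (adjusted p = 0.487), and below it in PD7591 (-0.94, adjusted p = 0.00502) and PD883 (-0.68, adjusted p = 0.0295). The test that these lines differ gave an adjusted p of 0.0850. Within PD883 Pfkl also fell with ionomycin, by 1.03 (adjusted p = 0.00545).

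A ratio of a pair of genes within a library does not depend on how libraries are scaled, so the isoenzymes were also compared as ratios of counts. The ratio of Pfkp to Pfkl was 0.828 ± 0.120 with ionomycin, 0.251 ± 0.0329 with TGFb and 0.478 ± 0.0825 with DMSO (SD, n = 3 lines each). The 6 libraries ran from 0.680 to 0.987 with ionomycin, from 0.185 to 0.285 with TGFb and from 0.373 to 0.597 with DMSO. The 3 treatments did not overlap. In log2 units ionomycin differed from DMSO by 0.80, TGFb from DMSO by -0.92 and ionomycin from TGFb by 1.72. Each gave p = 0.00926 in a two-sided exact permutation test within lines, the smallest that test can give, and an adjusted p of 0.0208 over the 9 ratio tests made. The sign was the same in each line, from 0.76 to 0.84 for ionomycin against DMSO and from -1.19 to -0.53 for TGFb against DMSO. Without the 4 libraries that leaned to short transcripts the differences were 0.71, -0.92 and 1.63, with adjusted p of 0.0556, 0.125 and 0.0556 from fewer arrangements.

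The ratio of Hk2 to Hk1 was 0.688 ± 0.0687 with ionomycin, 0.635 ± 0.110 with TGFb and 0.428 ± 0.110 with DMSO. It was higher with ionomycin than with DMSO by 0.73 in log2 units (exact permutation p = 0.00926, adjusted p = 0.0208) and higher with TGFb than with DMSO by 0.59 (exact permutation p = 0.0185, adjusted p = 0.0333). Ionomycin and TGFb differed by 0.14 (exact permutation p = 0.407). Over the lines, the shift with ionomycin came with a called rise of Hk2, and that with TGFb with a called fall of Hk1. By line, Hk1 changed with TGFb by 0.08 in PD454, -0.48 in PD7591 and -0.80 in PD883. Hk2 changed by 0.53, 0.10 and -0.04 in these lines, and of these values only that of Hk1 in PD883 was called. Hk2 and Hk1 differ in transcript length, 5513 against 3851 bases, and without the same 4 libraries the differences from DMSO were 0.56 with ionomycin (adjusted p = 0.0556) and 0.59 with TGFb (adjusted p = 0.125). The TGFb call was also lost without TGFb PD454 library 17, TGFb PD883 library 11 or either DMSO library of PD883. The ratio of Ldha to Ldhb, the heart-type lactate dehydrogenase, rested on 0 to 53 Ldhb counts in a library, and none of its 3 contrasts passed (adjusted p = 0.333, 0.0714 and 0.0556).

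**Figure D3:**
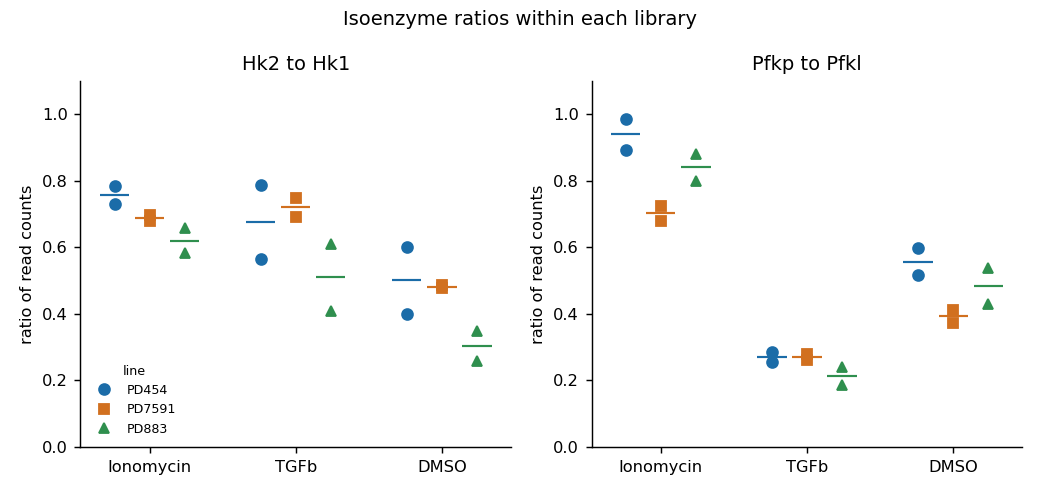
Ratio of read counts of Hk2 to Hk1 (left) and of Pfkp to Pfkl (right) in each of the 18 libraries by treatment, with 1 marker shape and colour per line and a bar at the mean of each pair. The Pfkp to Pfkl ratios of the ionomycin libraries, 0.680 to 0.987, lie above those of DMSO, 0.373 to 0.597, and those of TGFb, 0.185 to 0.285, lie below both.

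Aldolase splits fructose bisphosphate into the 3-carbon sugars. Aldoa, at chr7:126795234-126800751 on the minus strand, had 1319 and 1362 CPM in PD454, 1358 and 1613 CPM in PD7591 and 1771 and 1499 CPM in PD883 with ionomycin. In TGFb they were 1019.8 and 952, 722 and 842, and 1232 and 901 CPM, and with DMSO 985 and 1086, 1068 and 1135, and 2322 and 1754 CPM. Every ionomycin library lay above every TGFb library, and the difference was 0.66 ± 0.14 (adjusted p = 0.000614). Aldoa fell with TGFb (log2 change -0.51 ± 0.14, adjusted p = 0.0066), and by line the change was -0.07 in PD454, -0.49 in PD7591 and -0.93 in PD883. That call was lost without PD883 (adjusted p = 0.0854) or PD7591 (adjusted p = 0.0568). It was also lost with the duplicates summed (adjusted p = 0.0508). Ionomycin against DMSO gave 0.15 ± 0.14 (adjusted p = 0.432), and without PD883 Aldoa was called higher, at 0.42 (adjusted p = 0.0221).

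Phosphoglycerate kinase makes the first ATP of the pathway. Pgk1, at chrX:106187100-106203699 on the plus strand, had 699.8 and 654 CPM in PD454, 424 and 639.9 CPM in PD7591 and 976 and 667 CPM in PD883 with ionomycin. The TGFb pairs were 321 and 372, 242 and 266, and 593 and 479 CPM, and with DMSO 473 and 865, 352 and 428, and 1513 and 1260.2 CPM. The lines differed widely, but within each line both TGFb libraries lay below both DMSO libraries. Pgk1 fell with TGFb by 1.00 ± 0.19 on the log2 scale, to 0.499-fold (adjusted p = 0.00019), and the change was -0.95 in PD454, -0.62 in PD7591 and -1.37 in PD883. Ionomycin was 0.90 ± 0.19 above TGFb (adjusted p = 0.000378) and gave -0.10 ± 0.19 against DMSO (adjusted p = 0.699), a sign that turned without PD883 (0.24).

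Enolase makes phosphoenolpyruvate. The Eno1b entry had 1304 ± 138 CPM with ionomycin, 1363 ± 309.9 CPM with TGFb and 1656 ± 307 CPM with DMSO (SD, n = 3 lines each). Its log2 change was -0.34 ± 0.14 with ionomycin (adjusted p = 0.0777) and -0.29 ± 0.14 with TGFb (adjusted p = 0.098), neither called. The Eno1 entry itself, at chr4:150236721-150248879 on the plus strand, lay between 0 and 0.323 CPM in all libraries.

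Pyruvate kinase makes the second ATP and releases pyruvate, and the M1 and M2 splice forms are counted in 1 entry, so they could not be told apart. Pkm, at chr9:59656368-59679375 on the plus strand, had 3143 and 2689 CPM in PD454, 2738 and 3332 CPM in PD7591 and 3469.6 and 2925 CPM in PD883 with ionomycin. With TGFb it had 3526 and 3716, 2773 and 2882, and 3569 and 3177 CPM, and with DMSO 3428 and 4556, 3604 and 3801, and 6491 and 5858 CPM. In each line both ionomycin libraries lay below both DMSO libraries. Pkm fell with ionomycin (log2 change -0.57 ± 0.13, adjusted p = 0.00259) and with TGFb (-0.47 ± 0.13, adjusted p = 0.00536). Of the 9 tested genes, Pkm alone was called in the same direction in both contrasts with DMSO, whose control libraries are the same 6. The share of all genes tested that were called so in both was not counted. Ionomycin against TGFb gave -0.10 ± 0.13 for Pkm (adjusted p = 0.527). Both falls rested in part on PD883, where they were -0.95 and -0.87; without that line the adjusted p was 0.0581 with ionomycin and 0.124 with TGFb. The fall with ionomycin was also lost with the duplicates summed, at -0.58 (adjusted p = 0.0509).

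Lactate dehydrogenase A turns pyruvate into lactate. Ldha, at chr7:46841475-46855627 on the plus strand, had 1869 and 1595 CPM in PD454, 1483 and 1999 CPM in PD7591 and 1578 and 1650.0 CPM in PD883 with ionomycin. The TGFb libraries held 1519.8 and 1415, 915 and 980.0, and 1367 and 1276 CPM, and with DMSO 1835 and 2335, 1559 and 1789, and 2764 and 2865 CPM. All 6 TGFb libraries lay below all 6 DMSO libraries. Ldha fell with TGFb to 0.570-fold, a log2 change of -0.81 ± 0.14 (adjusted p = 8.02e-05). It was the one gene of the 9 tested called lower in each line, with -0.51 in PD454, -0.82 in PD7591 and -1.09 in PD883 (adjusted p = 0.0359, 0.00171 and 0.00016). Of all genes tested, 16.1%, 20.1% and 20% were called lower with TGFb in these lines, and the share called lower in every line was not counted. Ionomycin gave -0.33 ± 0.14 over the lines (adjusted p = 0.0696) and -0.80 within PD883 (adjusted p = 0.00439). Ionomycin was 0.48 ± 0.14 above TGFb (adjusted p = 0.00582), a call lost without PD7591 (adjusted p = 0.167).

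Much of the spread between lines lay in the DMSO libraries of PD883. Of the 9 tested genes, 8 had their highest DMSO level in that line, Hk2 being the exception. The share of all genes tested that were highest there was not counted. The level in PD883 was 2.62 times the mean of the other lines for Pgk1, 2.10 times for Pfkp, 1.99 times for Pfkl and 1.91 times for Aldoa, against 0.836 times for Hk2. A sum over the 10 genes took enolase from the Eno1 entry, without Eno1b, and Pkm was its largest part. In that sum the 2 PD883 libraries with DMSO held 15089 and 13268 CPM, and the other 4 DMSO libraries held 7684 to 9805 CPM. The ionomycin libraries held 7391 to 9450 CPM and the TGFb libraries 5551 to 8081 CPM over all lines.

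The changes against DMSO were lowest in PD883 for 7 of the 9 genes with ionomycin and for 8 of the 9 with TGFb, contrasts that share those DMSO libraries. A high DMSO level in a line also lowers its change against DMSO, so these counts are not independent of the DMSO levels above. The matching shares of all genes tested were not counted. Within single lines, ionomycin gave 0 calls among the 9 in PD454 and in PD7591 and 3 in PD883, namely Pkm, Pfkl and Ldha, all lower. Of all genes tested, 11.7% were called higher and 9.34% lower with ionomycin in PD454, 11.2% and 7.41% in PD7591 and 11.6% and 10.9% in PD883. TGFb gave 2 calls in PD454, 4 in PD7591 and 7 in PD883, all lower. Of all genes tested, 14.8% were called higher and 16.1% lower with TGFb in PD454, 17.7% and 20.1% in PD7591 and 18.4% and 20% in PD883. Ionomycin against TGFb gave 2 calls in PD454, 6 in PD7591 and 5 in PD883, all higher with ionomycin. Of all genes tested, that contrast called 22.2% higher and 22.7% lower in PD454, 24.1% and 20.6% in PD7591 and 24.8% and 24.5% in PD883. A call in one line and not in another does not show that the lines differ, and the joint test of equal change in the 3 lines called none of the 9 in any contrast. By edgeR, 5 of 9 had an unadjusted p under 0.05 for ionomycin against DMSO, 5 of 9 for TGFb against DMSO and 3 of 9 for ionomycin against TGFb. The lowest adjusted p was 0.122 for Ldha, 0.0850 for Pfkl and 0.0508 for Pfkl in these contrasts. Over all genes tested, that joint test called 2.59%, 5.26% and 8.4%.

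Levels of different genes can be set side by side only per length, here as CPM per kilobase of 1 reference transcript. With DMSO the order was Pkm at 1901 ± 556, Ldha at 1241 ± 327, the Eno1b entry at 925 ± 171 and Aldoa at 921 ± 371, then Pgk1 at 447 ± 282 CPM per kilobase (SD, n = 3 lines). Eno1b and Aldoa lay within the SD of Ldha, and no pair was tested. The entry and control steps were far lower, with Pfkl at 114 ± 51.1, Hk1 at 88.8 ± 16.3, Slc2a1 at 76.5 ± 9.96, Pfkp at 48.8 ± 22.7 and Hk2 at 26.1 ± 2.81 CPM per kilobase. Hk1 and Slc2a1 lay within the SD of Pfkl, and Hk2 was the lowest of the 9 with DMSO. With ionomycin Hk2 stood at 50.3 ± 2.85 and Pfkp at 57.3 ± 5.16, while with TGFb Hk2 stood at 30.5 ± 7.89 and Pfkp, now the lowest, at 18.1 ± 4.63 CPM per kilobase. Pkm was the highest with each treatment, at 1254 ± 58.0 with ionomycin and 1346 ± 167 with TGFb.

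The remaining enzymes of glycolysis filled in the steps between these genes. Of 17 other glycolytic enzymes tested, 3 rose and 5 fell with ionomycin, with a median log2 change of -0.11. With TGFb 2 rose and 8 fell, with a median of -0.51. Among all genes tested, 17.2% were called higher and 16.1% lower with ionomycin, and 24.3% and 26.5% with TGFb. These shares are the background for the lists in the next paragraphs too. With TGFb, the isomerases Gpi1 and Tpi1 fell by 0.56 ± 0.14 and 0.51 ± 0.16 (adjusted p = 0.00335 and 0.0115). Gapdh, the dehydrogenase between Tpi1 and Pgk1, gave -0.29 ± 0.18 with ionomycin and -0.12 ± 0.18 with TGFb and was not called (adjusted p = 0.217 and 0.592). Pgam1, the mutase before enolase, fell with ionomycin by 0.37 ± 0.13 (adjusted p = 0.0298) and was not called with TGFb (adjusted p = 0.98). The larger changes were in isoenzymes of low level. With TGFb, Pklr, the liver-type pyruvate kinase, fell by 4.19 ± 0.39 to 4.21 CPM, against 48.6 CPM with DMSO, and Hkdc1, a hexokinase-like gene, by 3.95 ± 0.31 to 1.23 CPM, against 18.1 CPM. Eno2, the neuronal enolase, rose with ionomycin by 1.14 ± 0.22 and had 4.13 CPM, against 1.88 CPM with DMSO. Aldoc fell with ionomycin by 1.53 ± 0.35. The lines spread widely with DMSO for Hkdc1, at 5.16 ± 6.47 CPM per kilobase, and for Aldoc, at 25.1 ± 31.5 (SD, n = 3 lines).

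Of 10 other transporters of glucose and lactate tested, 2 rose and 3 fell with ionomycin, and 1 rose and 6 fell with TGFb. Slc16a1, which encodes the lactate transporter MCT1, fell with TGFb by 1.09 ± 0.11 to 103 ± 36.2 CPM, against 218 ± 67.1 CPM with DMSO (adjusted p = 1.47e-07). Slc16a3, which encodes the export-type lactate transporter MCT4, gave 0.61 ± 0.28 and was not called (adjusted p = 0.0783). Slc2a8, which encodes GLUT8, rose with ionomycin by 0.85 ± 0.13 to 23.1 ± 2.26 CPM, against 13.1 ± 3.61 CPM with DMSO.

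Of 10 genes tested that set fructose bisphosphate or run gluconeogenesis, 4 rose and 1 fell with ionomycin and 1 rose and 5 fell with TGFb. Pfkfb2 and Pfkfb4 make and break a fructose bisphosphate that activates phosphofructokinase. Pfkfb4 rose with TGFb by 3.18 ± 0.21 to 46.6 ± 8.29 CPM, against 5.19 ± 0.186 CPM with DMSO, and Pfkfb2 fell by 2.61 ± 0.11 to 23.1 ± 4.02 CPM, against 141 ± 25.1 CPM. Pcx and Pck2 carry pyruvate towards phosphoenolpyruvate, and with ionomycin Pcx rose by 1.71 ± 0.15 and Pck2 by 1.38 ± 0.13. Pcx fell with TGFb by 1.48 ± 0.15.

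Of the branches, the pentose phosphate pathway had 2 genes higher and 4 lower of 10 with ionomycin, and 0 higher and 8 lower with TGFb. Tkt, the transketolase, fell with TGFb by 1.23 ± 0.11 to 411 ± 20.1 CPM, against 988 ± 269 CPM with DMSO, and Pgd by 0.82 ± 0.10. In the list for glycogen and hexosamine, 4 of 15 rose and none fell with ionomycin, and 3 rose and 6 fell with TGFb. Gfpt1, the first enzyme of hexosamine synthesis, rose with ionomycin by 0.89 ± 0.14 and fell with TGFb by 1.02 ± 0.14, and had 465 CPM with ionomycin, 124 CPM with TGFb and 251 CPM with DMSO. In the list for pyruvate entry into mitochondria, 3 rose and 3 fell of 14 with ionomycin, and 1 rose and 4 fell with TGFb. Pdk1, the kinase that shuts pyruvate dehydrogenase, fell with TGFb by 1.51 ± 0.35 to 46.0 ± 24.7 CPM, against 134 ± 78.8 CPM with DMSO. Over the 6 lists of transporters, enzymes and branches, 76 of 83 listed genes were tested. With ionomycin 18 rose and 16 fell (median -0.10), so 44.7% were called, against 33.3% of all genes tested. With TGFb 8 rose and 37 fell (median -0.39), so 59.2% were called, against 50.7% of all genes tested.

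**Figure D4:**
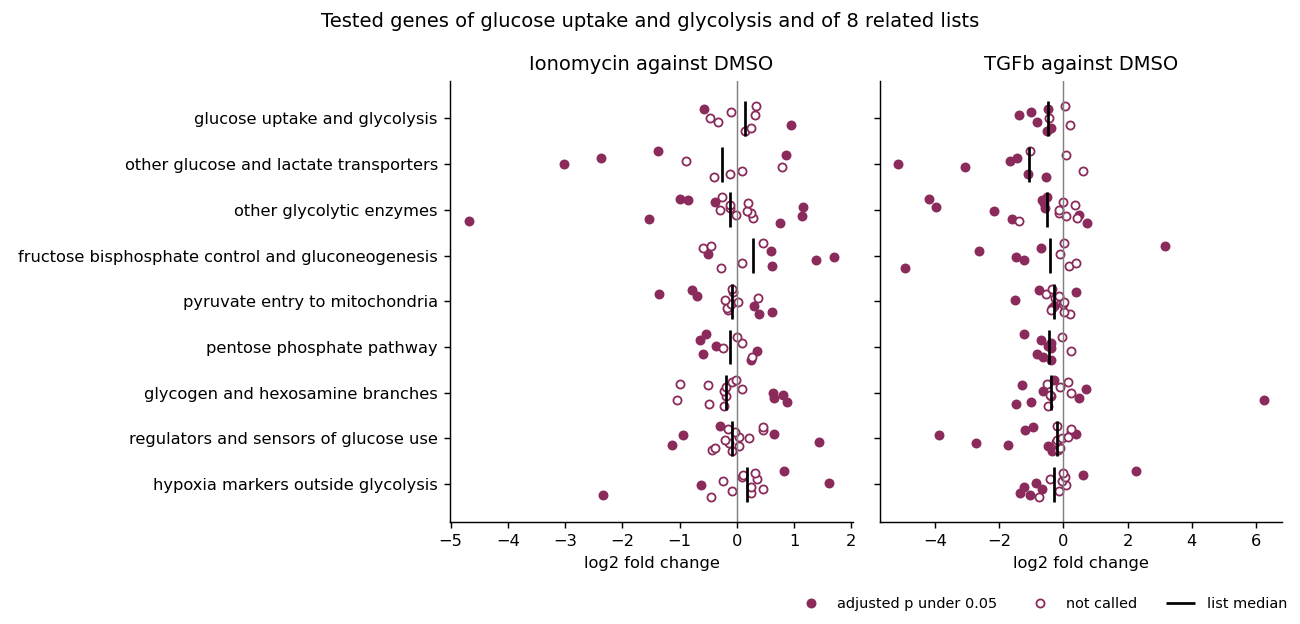
Log2 fold changes of the tested genes of glucose uptake and glycolysis and of 8 related lists, for ionomycin against DMSO (left) and TGFb against DMSO (right), with filled points for an adjusted p under 0.05 and a bar at the median of each list; the 1 gene with 3 or fewer counts in a treatment is not drawn. With TGFb the bars of all 9 lists lie below 0, from -1.06 for the transporters to -0.19 for the regulators, and with ionomycin they lie between -0.25 and 0.28.

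Among regulators and sensors of glucose use, 2 of 17 rose and 3 fell with ionomycin and 2 rose and 7 fell with TGFb. These calls, 29.4% and 52.9% of the list, stand beside 33.3% and 50.7% of all genes tested. Hif1a, the oxygen-regulated factor that acts on many of the 10 genes, had 465 ± 14.1 CPM with ionomycin, 149 ± 52.1 CPM with TGFb and 174 ± 36.9 CPM with DMSO. It rose with ionomycin by 1.44 ± 0.14 (adjusted p = 6.92e-07) and gave -0.24 ± 0.14 with TGFb (adjusted p = 0.156). Myc rose with ionomycin by 0.65 ± 0.14 and with TGFb by 0.40 ± 0.14. Mlxipl, which encodes the carbohydrate-response factor ChREBP, fell with ionomycin by 0.94 ± 0.24 and with TGFb by 3.87 ± 0.28. Txnip, a brake on glucose uptake, fell with TGFb by 0.94 ± 0.38 (adjusted p = 0.0496).

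Hypoxia-responsive genes outside glycolysis were mixed, with 2 of 14 higher and 2 lower with ionomycin and 2 higher and 5 lower with TGFb. That is 28.6% and 50% of the list, beside 33.3% and 50.7% of all genes tested. Vegfa, the angiogenic growth factor, had 398 ± 111 CPM with ionomycin, 1087 ± 375 CPM with TGFb and 229 ± 72.7 CPM with DMSO, and rose by 0.83 ± 0.19 with ionomycin and by 2.26 ± 0.20 with TGFb. Ero1l, an oxidase of the endoplasmic reticulum, rose with ionomycin by 1.61 ± 0.23. Bnip3 and Car9 fell with TGFb by 1.36 ± 0.32 and 1.23 ± 0.32. Protein, glucose uptake and lactate were not measured, so the levels above are those of RNA alone.

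Ductal and epithelial markers, which the label calls for, were present but shifted with TGFb. Of 10 such markers, 8 were at 1 CPM or more on average with ionomycin, 9 with TGFb and 8 with DMSO, and their sum, most of it Krt8 and Krt18, was 5396 to 9703 CPM with ionomycin, 3994 to 7053 CPM with TGFb and 4908 to 7709 CPM with DMSO. With TGFb 3 of the 10 rose (Cldn4, Krt18 and Sox9) and 4 fell (Cdh1, Epcam, Krt19 and Muc1), alongside the falls of the glycolytic genes. Krt19 averaged 18.1 CPM with TGFb, against 984 CPM with DMSO, Cdh1 67.4 CPM against 608 CPM and Muc1 1.54 CPM against 30.0 CPM. With ionomycin 3 rose (Cldn4, Krt18 and Muc1) and none fell. Of these, Cldn4 stayed under 1 CPM, at 0.450 CPM on average against 0.0941 CPM with DMSO, while it had 60.2 CPM with TGFb. Fibroblast markers summed to 2.30 to 7.15 CPM with ionomycin, 8.93 to 102 CPM with TGFb and 2.77 to 6.39 CPM with DMSO. Of the 10, Col1a1 alone was at 1 CPM or more with ionomycin and with DMSO, and Col1a1, Pdgfrb and Acta2 were with TGFb. Immune markers summed to 48.1 to 205 CPM with ionomycin, 23.7 to 45.0 CPM with TGFb and 37.7 to 83.3 CPM with DMSO, nearly all of it Cd14 and Cd68, while Ptprc held 37 counts in all libraries together. Endothelial markers stayed at 4.42 CPM or less, acinar and endocrine markers at 6.18 CPM or less, and Cpa1, Pnlip, Ins1, Ins2 and Sst had 0 counts. The part of these differences in the results above was not tested.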

How the data were processed

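RNA of 18 libraries was sequenced; the labels name the RNeasy Mini or NucleoSpin kits for RNA and Novogene for the libraries. The authors deposited raw read counts per gene symbol, with no normalization. Per the submitters' processing notes they used CASAVA, Trimmomatic 0.32, STAR and featureCounts on mm10. The annotation release, strand mode and handling of multi-mapping reads are not given in these sources, so entries that share sequence, such as Eno1 and Eno1b, are uncertain.

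The genes and lists were chosen with earlier results of these data known. Named genes outside the 10 are, per list and contrast, up to 2 rising and 2 falling genes with the smallest p among those called with the same sign in 3 lines, plus a fixed set of glycolytic and hypoxia genes; not all are printed. Counts were tested with edgeR 4.0.16 in R 4.3.3 (robust quasi-likelihood F test, filterByExpr over the 9 groups, TMM factors, treatment and line as terms), which kept 13827 of 24527 entries. Adjusted p-values are Benjamini-Hochberg values over all entries tested. Within-line changes and the joint test of equal change in 3 lines, on 2 degrees of freedom, came from a model with a mean per group. An SE is the log2 change divided by the square root of F. Lengths are those of 1 principal GENCODE M21 transcript per gene. Ratios were compared with 0.5 added to each count, by a two-sided exact permutation within lines, adjusted over 9 tests. The tests were also run on simulated data. Library totals ran from 17591005 to 37894692 counts. The 2 libraries a group limit the precision. Alternatives were median-ratio factors, library totals, no filter, DESeq2 1.42.0, limma-voom (limma 3.58.1), summed duplicates, a mean per group, dropping the line term, the libraries of a contrast alone, a length offset, and leaving out 4 libraries, each line or each library.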

Additional observations from a re-analysis of the deposited data

Results flagged for a closer look

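Slc2a1 with TGFb against DMSO stands out because its lines went opposite ways: both TGFb libraries lay above both DMSO libraries in PD454 and below them in PD883. The log2 changes were 0.50 in PD454, 0.00279 in PD7591 and -0.41 in PD883. The joint edgeR test that the lines differ gave an adjusted p of 0.128, so the difference did not pass; it was called when the low-count filter was dropped.

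Pfkl with TGFb against DMSO did likewise, above DMSO in PD454 (0.23) and below it in PD7591 (-0.94) and PD883 (-0.68). The same test gave an adjusted p of 0.085, and Pfkl was called dependent on the line when the low-count filter was dropped or when the 4 libraries rich in short transcripts were left out.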

How the results depend on the processing

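Over 32 alternatives and 3 contrasts, 799 of 864 values of the 9 tested genes kept their direction and their side of the threshold, 20 lost a call, 26 gained one and 19 changed sign. Of the other named genes 2636 of 2784 kept both. No paired analysis was possible because the groups share no library numbers; treatments are matched by line, which the line term and the permutation within lines already use.

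Of all genes, 2152 were called for ionomycin against DMSO without the line term and 1858 with summed duplicates, and 4646 for TGFb against DMSO with summed duplicates, against 4599 and 7015. Of the 9 genes, ionomycin against DMSO called 4 with library totals, 5 with a mean per group, 1 with summed duplicates, 4 with the libraries of the contrast alone and 2 to 4 when single libraries were left out, 4 being without ionomycin PD7591 library 4. Without PD883 ionomycin against DMSO called 3 higher and 0 lower. TGFb against DMSO called 3 without PD883, 4 without PD7591, 4 with summed duplicates (Hk1 with adjusted p = 0.1005 and Aldoa with 0.0508 lost), 7 without PD454 and 7 with a mean per group (Pfkl gained in both). Ionomycin against TGFb called 4 without PD7591. Line dependence called 2 of the 9 for ionomycin against DMSO without the filter and 4 without the 4 libraries that leaned to short transcripts. For TGFb against DMSO it called 2 without the filter, 1 without those 4 libraries and 0 to 4 leaving out single libraries, 4 being without TGFb PD883 library 11. For ionomycin against TGFb it called 1 with library totals, 2 without the filter, 2 with the length offset, 1 without the 4 libraries and 0 to 2 leaving out single libraries (2 without TGFb PD883 library 11).

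Without the 4 libraries the Hk2 to Hk1 ratio gave 0.56 for ionomycin against DMSO (adjusted p = 0.0556), 0.59 for TGFb against DMSO (adjusted p = 0.125) and -0.036 for ionomycin against TGFb, a change of sign. The Pfkp to Pfkl ratio gave 0.71, -0.92 and 1.63 (adjusted p = 0.0556, 0.125 and 0.0556). Fewer libraries leave fewer arrangements. Leaving out single libraries, the Hk2 to Hk1 ratio for TGFb against DMSO ran from 0.49 to 0.69 and lost its call without TGFb PD454 library 17, TGFb PD883 library 11 or either DMSO PD883 library. The Ldha to Ldhb ratio ran from -2.25 to -1.07 for TGFb against DMSO and from 0.54 to 1.13 for ionomycin against TGFb, passing in some of these.

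Changes of sign among genes not called were those of Pgk1 for ionomycin against DMSO (0.065 without the 4 libraries, 0.24 without PD883, -0.23 to 0.026 leaving out single libraries), Slc2a1 for TGFb against DMSO (-0.20 without PD454, -0.031 to 0.17 leaving out single libraries), Pkm for ionomycin against TGFb (0.028 without PD454), Pfkl for ionomycin against TGFb (0.0069 with limma-voom, 0.029 with summed duplicates, 0.22 without PD454, 0.14 without PD883, -0.14 to 0.095 leaving out single libraries), Eno1b for ionomycin against TGFb (0.036 with the length offset, 0.13 without PD454, -0.14 to 0.075 leaving out single libraries) and Gapdh for TGFb against DMSO (-0.24 to 0.045 leaving out single libraries). The cause of these changes was not tested. With 2 libraries a group, single-line changes have wide errors (SE of 0.38 for Hk2), which limits what they can show.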
